A study of Rattus norvegicus with 3 samples.

Results

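The vesicle release genes described here are 90 of the 17337 genes in the deposited table. They were chosen by symbol: syntaxins, SNAP25-type and VAMP SNAREs, Vti1, syntaxin binding proteins, complexins, Unc13 and Rims genes, synaptotagmins and synaptotagmin-like genes, synapsins, Sv2, synaptophysin and its relatives, secretory carrier membrane proteins, and exocyst subunits. RNA came from primary peripheral glia of wild-type embryonic rat dorsal root ganglia, labelled Schwann cell precursors, which were grown in a modified Sato medium and not treated. There are 3 libraries and 1 group, so the data give levels and no contrast between conditions, and the labels, which do not give the embryonic age, do not say whether the 3 came from separate cultures. Values are TPM, counts per gene length scaled to the same total in each library, given for replicates 1, 2 and 3 or as mean ± SD (n = 3).

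SNAREs are small membrane-anchored proteins that zip into a bundle of helices between a vesicle and its target membrane and so drive fusion. SM proteins hold and guide syntaxins, Unc13 and Rims proteins prime vesicles, complexins clamp the partly built bundle, synaptotagmins sense calcium, and the exocyst tethers vesicles to the plasma membrane before SNAREs engage. Neurons use a specialised set of these proteins at synapses, while all cells use others for traffic between the Golgi, endosomes and the surface. Schwann cells and their precursors use them to deliver membrane proteins, matrix and growth factors to the surface.

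Total counts were 14139074 to 15309526 per library, and the 90 genes took 0.295% to 0.297% of them. A count of 3 in a gene of the members' median length corresponds to 0.185 to 0.199 TPM. Of all genes tested, 78.4% were above 1 TPM by limma, the background for the marker counts that follow. All 9 measured Schwann cell precursor markers were above 1 TPM, with Cdh19 lowest at 247 ± 9.13 TPM. All 16 measured sensory neuron markers were also above 1 TPM, from Isl1 at 2.23 ± 0.484 to Uchl1 at 383 ± 2.21, and they summed to 1243, 1267 and 1249 TPM in the 3 libraries. All 6 fibroblast markers were above 1 TPM, from 267 to 3842, and they summed to 8283 to 8483 TPM. The endothelial markers (3 of 5 above, 60%) summed to 34.0 to 36.4 TPM. Among them Pecam1 was lowest at 0 to 0.139 and Cdh5 highest at a mean of 16.6. The macrophage markers (4 of 6, 66.7%) summed to 24.7 to 29.8, with means from 0.316 for Ptprc to 9.85 for Lyz2. The chromaffin and endocrine markers (3 of 5, 60%) summed to 45.4 to 49.0. Of these, Dbh was lowest at 0 to 0.065 and Scg2 highest at a mean of 41.8. In bulk RNA, fewer cells of a type and less RNA per cell cannot be told apart, and which cells the vesicle gene RNA came from was not tested.

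Most vesicle genes were above 1 TPM, and the share that passed differed between roles. By limma's moderated test of log2(TPM + 1) against 1 TPM, with Benjamini-Hochberg adjustment over all 13345 genes that had a count, 69 of the 88 members tested were above 1 TPM, where the background over all genes tested was 78.4%. The members' share is also 78.4%, the same as that background. Another 13 were below 1 TPM, beside a background of 17.8%, and 6 passed in neither direction. Cplx3 and Stx19 had no count in any library. The members' median was 15.4 ± 0.559 TPM, against 8.38 ± 0.159 over all genes and 21.7 ± 0.195 over genes with a count. The 10 members with a mean of 100 TPM or more were Syt11, Vamp2, Vamp3, Sypl1, Stx4, Vamp8, Stx6, Scamp3, Stx12 and Scamp4.

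RefSeq promoter windows of the GRCr8 assembly matched 73 of the 90 members, and CpG dinucleotides were counted in the 250 bases before each listed start. Promoters rich in CpG are typical of genes used in many cell types. Over the members the number ran from 0 to 41, with a median of 16. The windows of 4 genes are printed as examples with many and with few CpG, which are in capitals. They were chosen after their values were seen, and each runs 5′ to 3′ in the direction of its gene. Vamp2 (chr10:54292539-54292788, plus strand) has 24 CpG and Snap23 (chr3:127967636-127967885, plus strand) has 21. Vamp8 (chr4:106005643-106005892, minus strand) has 5 and Unc13c (chr8:83553823-83554072, minus strand) has 2.
Vamp2: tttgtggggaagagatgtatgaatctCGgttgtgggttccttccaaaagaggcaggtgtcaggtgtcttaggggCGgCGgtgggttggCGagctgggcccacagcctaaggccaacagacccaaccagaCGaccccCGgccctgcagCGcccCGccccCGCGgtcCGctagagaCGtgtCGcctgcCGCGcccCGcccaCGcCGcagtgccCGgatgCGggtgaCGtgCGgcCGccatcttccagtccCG
Snap23: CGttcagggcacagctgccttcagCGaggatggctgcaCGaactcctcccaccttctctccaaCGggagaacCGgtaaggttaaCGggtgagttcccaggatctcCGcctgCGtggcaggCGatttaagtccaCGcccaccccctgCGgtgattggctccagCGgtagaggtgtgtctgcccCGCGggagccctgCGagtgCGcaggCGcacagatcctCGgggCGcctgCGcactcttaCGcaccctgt
Vamp8: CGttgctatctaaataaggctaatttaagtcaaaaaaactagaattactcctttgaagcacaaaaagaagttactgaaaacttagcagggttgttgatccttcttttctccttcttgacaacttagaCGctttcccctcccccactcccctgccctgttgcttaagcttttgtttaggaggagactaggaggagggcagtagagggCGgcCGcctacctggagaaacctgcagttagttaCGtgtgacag
Unc13c: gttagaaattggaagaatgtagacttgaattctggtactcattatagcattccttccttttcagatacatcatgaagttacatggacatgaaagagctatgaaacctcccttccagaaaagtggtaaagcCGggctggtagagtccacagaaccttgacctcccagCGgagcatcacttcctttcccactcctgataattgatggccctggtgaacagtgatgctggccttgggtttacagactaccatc

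The number of CpG went with level among the members much as it did over all genes. Of 41 members with a mean of 10 TPM or more, 37 (90.2%) had 10 CpG or more in the window, beside 82.4% of all 6864 genes at that level. Of 18 members from 1 to 10 TPM, 12 had as many (66.7%, beside 63.4% of all genes), and of 14 members under 1 TPM, 3 had (21.4%, beside 20%). The 4 exceptions at 10 TPM or more were Vamp8, Syt4 with 8 CpG, Exoc2 with 3 and Cplx2 with 2. The 3 exceptions under 1 TPM were Rims1 with 22, Syn2 with 19 and Sypl2 with 18. In the neuronal release set 13 of 20 matched genes (65%) had 10 CpG or more, against 39 of the 53 other members (73.6%), while the medians were 17 and 16 CpG. The difference was not tested. These counts are a description of annotated starts, which need not be the starts used in these cells.

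**Figure D1:**
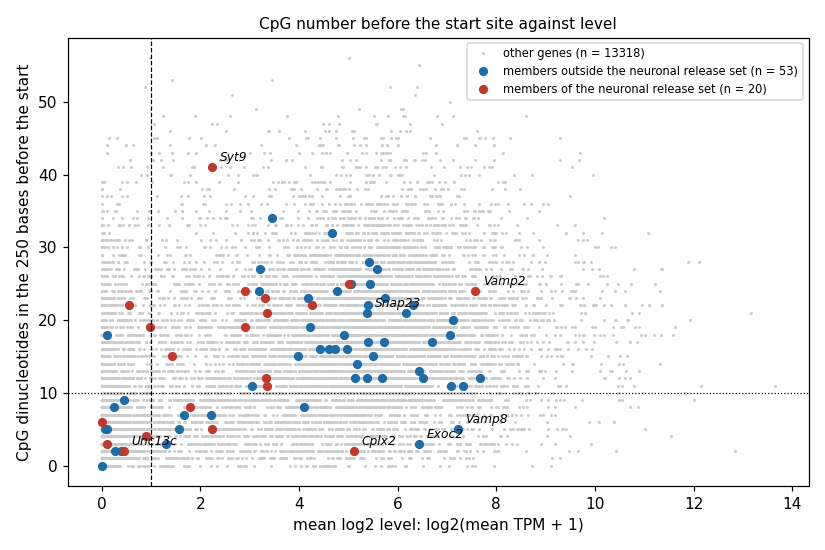
CpG dinucleotides in the 250 bases before the annotated start (vertical axis) against log2(mean TPM + 1) (horizontal axis) for 73 members and all other matched genes; dotted and dashed lines mark 10 CpG and 1 TPM. Most members right of 10 TPM lie above the dotted line, and Vamp8, Exoc2, Cplx2 and Syt4 lie below it.

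The SNAREs themselves were all present where they had a count. All 26 tested syntaxins, Vti1, SNAP25-type and VAMP genes were above 1 TPM, and all 26 were also above 5 TPM, beside a background of 68.4% at that level. Among syntaxins of the plasma membrane, Stx4, a receptor for constitutive and regulated delivery in most cells, was highest with 163, 153 and 160 TPM. It made up 49.7 ± 1.26% of the summed TPM of the 7 genes. Stx2 followed with 84.7, 79.0 and 72.2 TPM, and Stx11, better known from cytotoxic granule release in lymphocytes, with 52.6, 54.9 and 50.8. The ranges of these 3 did not overlap.

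Other plasma membrane syntaxins were lower. Stx1a, a syntaxin of nerve terminals, was at 7.81, 10.2 and 8.59 TPM. Stx3, used at apical membranes and ribbon synapses, was at 9.96, 9.04 and 10.7. Their ranges overlapped, so the order of these genes is not settled. Stx19 had 0 counts in each library, which allows at most 0.37 TPM for a gene of its length, the value of 3 counts.

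Syntaxins of the inner membranes and Vti1a were all present, with means from 20.6 to 138 TPM. Stx6 of the trans-Golgi network was at 138, 142 and 135 TPM, and Stx12 of recycling endosomes at 136, 127 and 134. Their ranges overlapped. Stx5, which acts between ER and Golgi, stood below both at 88.9, 91.5 and 89.8 TPM. Stx16 of the trans-Golgi network was at 52.2, 51.2 and 52.0, and the late endosome genes Stx7 and Stx8 at 52.2, 51.0 and 47.3 and at 31.6, 35.5 and 35.0. Stx18 of the ER and Vti1a, means 41.3 ± 1.20 and 40.7 ± 3.30, lay between Stx7 and Stx8. Stx17, which fuses autophagosomes with lysosomes, was lowest with 18.5, 21.6 and 21.7.

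In the SNAP25 family, the widely expressed forms exceeded the neuronal one. Snap23, the general counterpart of Snap25, was at 38.6, 40.2 and 42.8 TPM, and Snap29, which also serves autophagosome fusion, at 41.4, 40.8 and 42.3. These ranges overlapped. Snap47 was at 15.5, 15.0 and 14.0, and Snap25, the partner of Stx1a at synapses, at 11.1, 10.2 and 9.88 TPM. In rn6, Snap25 (NCBI gene 25012) is on the plus strand of chromosome 3 from 129697408 to 129788417 with 9 separate exons. Snap23 (64630) is also a plus-strand gene of chromosome 3, from 112333982 to 112362961, with 7. Snap23 exceeded Snap25 in each of the 3 libraries, by 3.91-fold in mean TPM.

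The VAMPs, the vesicle-side SNAREs, did not follow that pattern. Vamp2, the synaptic vesicle SNARE that is also found in other secretory cells, was at 184, 191 and 191 TPM. Vamp3, its close relative in non-neuronal cells, was at 184, 182 and 180. The log2 ratio of Vamp3 to Vamp2 was -0.05 ± 0.05 (SD), a difference about as large as its spread. The genes were level in replicate 1, and Vamp2 was slightly higher in replicates 2 and 3 (-0.07 and -0.09). Vamp8 of endosomes and regulated granules was at 130, 157 and 156 TPM, and Vamp7, which serves lysosome exocytosis, at 99.2, 91.5 and 103.0. Vamp4 of the trans-Golgi network was at 33.1, 29.9 and 33.1, and Vamp5, best known from muscle, had a mean of 23.3 ± 2.32. Vamp1, the other synaptic VAMP, was lowest with 8.94, 8.89 and 9.60 TPM, 20.7-fold under Vamp2. The table lists only 301 and 307 exon bases for Vamp8 and Vamp5, so their TPM rests on short gene models.

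SM proteins and other syntaxin binders were mostly at moderate levels, with 6 of 7 above 1 TPM (85.7%, near the background of 78.4%). Stxbp3 (Munc18c), which binds Stx4, was at 44.4, 43.7 and 45.2 TPM. Stxbp2 (Munc18-2), the partner of Stx11, was at 16.7, 17.6 and 16.7, lower in every library. Stxbp6 (amisyn) was at 30.04, 30.2 and 27.0, and Stxbp4, a binder of Stx4, at 29.3, 22.7 and 26.5. Stxbp5 (tomosyn), which inhibits fusion, had a mean of 17.6 ± 1.91. Stxbp5l, the tomosyn relative of the nervous system, had 0, 2 and 3 counts and was below 1 TPM (limma adjusted p = 4.69e-06).

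**Figure D2:**
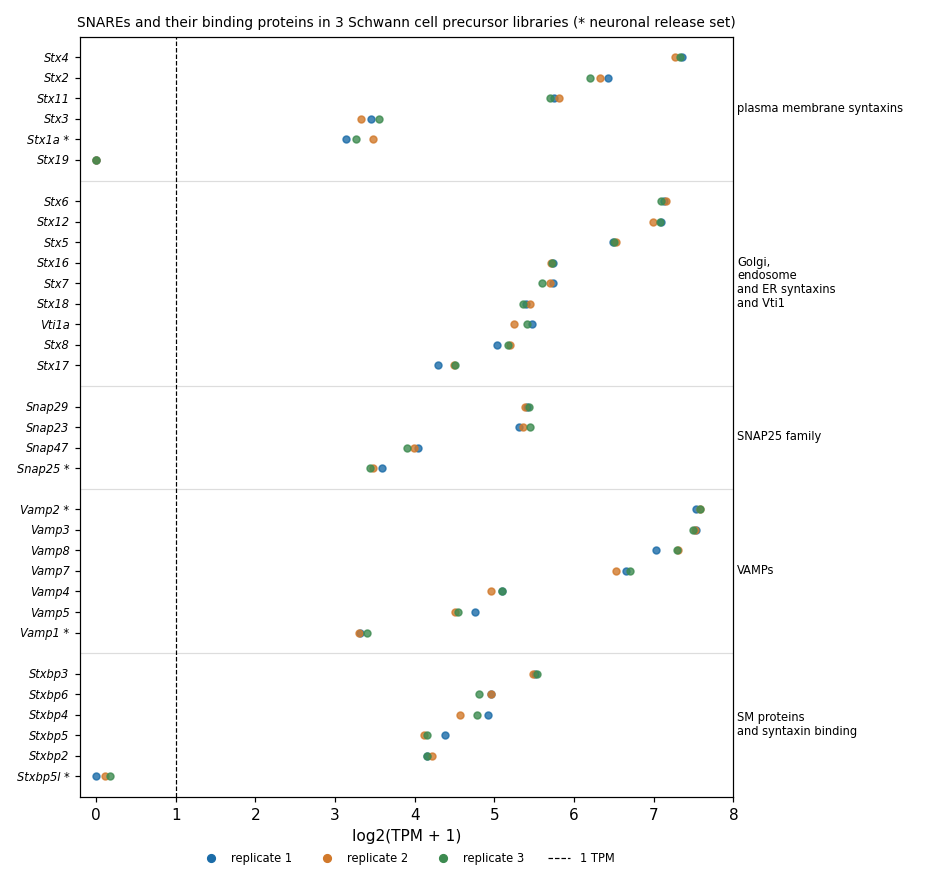
Level of SNARE and syntaxin binding genes, one row per gene within its role, as log2(TPM + 1) on the horizontal axis, with 1 point per library and a dashed line at 1 TPM. Asterisks mark genes of the neuronal release set; Stx19 and Stxbp5l lie left of the line, and every other gene drawn lies right of it in each library.

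Of 11 tested clamping and priming genes (complexins, Unc13 and Rims), 6 were above 1 TPM (54.5%, beside 78.4% of all genes tested), 4 below (beside 17.8%) and 1 in neither direction. The median over all 12 measured was 1.60 ± 0.0775 TPM. Cplx2, a clamp used in neurons and in other secretory cells, was highest with 33.8, 35.7 and 31.5 TPM, 51.5 ± 1.70% of the role's sum. Cplx1 was at 8.57, 9.91 and 9.06, Cplx4 had 1, 0 and 0 counts, and Cplx3 none. The highest library of Cplx1 was far under the lowest of Cplx2.

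Of the priming factors, Unc13b (Munc13-2) was at 8.53, 8.07 and 7.92 TPM and Unc13a (Munc13-1), the main form at synapses, at 6.58, 6.14 and 6.61. These ranges did not overlap, with a log2 ratio of 0.34 ± 0.07. Unc13d (Munc13-4), which serves granule release in blood cells, was at 1.96, 1.99 and 1.88, and Unc13c, a form of the brain, at 0.317, 0.321 and 0.461. Of the Rims genes, which scaffold the active zone where synaptic vesicles fuse, Rims3 was at 4.51, 3.17 and 3.44, Rims2 at 1.20, 1.07 and 1.49 and Rims1 at 0.551, 0.335 and 0.488 TPM. Rims4 had 1, 1 and 0 counts. Rims2 passed in neither direction by limma (adjusted p = 0.0762), but was above 1 TPM by edgeR's quasi-likelihood statistic on the counts (adjusted p = 0.0175) and by limma with no variance trend (adjusted p = 0.0493).

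One synaptotagmin made up most of the family's summed TPM. Syt11 was at 208, 203 and 199 TPM, the highest of all 90 members and 75.3 ± 1.20% of the sum over 15 synaptotagmins. It encodes a form that is not a calcium sensor, and its closest relative Syt4 was at 16.1, 16.7 and 15.6 TPM. In rn6, Syt11 (NCBI gene 60568) runs from 188114761 to 188138180 of chromosome 2, minus strand, in 4 exons. Syt5, linked to dense-core vesicle release, was next at 17.7, 18.4 and 21.1.

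The synaptic calcium sensors Syt1 and Syt2 were low, unlike Syt5, given above, which is also in the neuronal release set. Syt1, the fast sensor of many synapses, was at 2.86, 2.76 and 1.76 TPM, and Syt2 had a mean of 0.858 ± 0.150. Syt7, a slower sensor with high calcium affinity that also acts in lysosome exocytosis, was at 6.67, 8.38 and 6.76, higher than Syt1 in each library by a log2 ratio of 1.55 ± 0.34. The ranges of Syt3 and Syt13, means 7.23 ± 0.391 and 7.01 ± 1.13, overlapped that of Syt7, and Syt9 was under it at 3.70 ± 0.293. Syt2, Syt12 and Syt17 passed in neither direction. Below 1 TPM were Syt6 with 4, 2 and 7 counts, Syt15 with 6, 5 and 5, Syt10 with 0, 2 and 3 and Syt8 with 0, 1 and 0. The call of Syt6 was lost without replicate 1 (limma adjusted p = 0.0588). In all, 8 of 15 synaptotagmins were above 1 TPM (53.3%, beside 78.4% of all genes tested) and 6 of 15 above 5 TPM (beside 68.4%).

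Synaptotagmin-like proteins bind Rab27 on vesicles, and their genes were low. Sytl4 was at 4.22, 3.53 and 3.17 TPM, Sytl3 at 1.96, 2.57 and 1.97, Sytl1 at 1.73, 1.498 and 1.14 and Sytl5 at 0.299, 0.257 and 0.0640. All 4 were below 5 TPM by limma, beside a background of 28.7%. The Rab27 genes themselves, outside the 90 and named after their values were seen, were at 1.48 ± 0.131 TPM for Rab27a and 0.896 ± 0.290 for Rab27b. The call of Sytl1 above 1 TPM (limma adjusted p = 0.0155) was lost without replicate 1 (adjusted p = 0.12) and without replicate 2 (adjusted p = 0.0527).

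In the synaptophysin family, Sypl1 stood over the synaptic form Syp, and Sypl2 stood under it. Sypl1 (pantophysin), the synaptophysin relative of non-neuronal cells, was at 182, 161 and 163 TPM. Syp (synaptophysin) itself was at 17.0, 20.5 and 16.9, 9.29-fold lower in mean TPM. Sypl2, the form of muscle, had 2, 0 and 3 counts. The Sv2 genes encode glycoproteins of synaptic and endocrine vesicles, and Sv2c was highest with 32.3, 33.3 and 28.8 TPM. Sv2a, the form found most widely in brain, was at 8.81, 7.66 and 10.5, and Sv2b at 1.98, 1.82 and 1.29. Those 3 ranges did not overlap. The call of Sv2b above 1 TPM was lost without replicate 1 (limma adjusted p = 0.0767).

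Synapsins, which tether synaptic vesicles to actin, were low. Syn1 was at 6.23, 7.43 and 5.77 TPM, while Syn2 at 1.04, 0.861 and 1.01 and Syn3 at 1.38, 1.35 and 1.03 passed in neither direction. Without replicate 3, Syn3 was above 1 TPM (limma adjusted p = 0.0449). Syn1 shares 9 exon bases with Araf, a kinase gene at 55.7 TPM on the opposite strand. Cplx2 shares 200 with Lnc012, also on the opposite strand and listed at 0. The sources do not say whether counting used strand, so reads of such partners may not be told apart.

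Secretory carrier membrane proteins, which recycle membrane between the Golgi, endosomes and the surface, were all present. All 5 were above 5 TPM, beside 68.4% of all genes tested, with a median of 85.7 ± 0.942. Scamp3 was at 132, 138 and 135 TPM and Scamp4 at 94.5, 103.3 and 108.5. Scamp2 was at 86.8, 85.2 and 85.1, Scamp5, the form enriched in brain, at 68.0, 73.9 and 69.4, and Scamp1 at 41.5, 43.5 and 42.0. The lowest library of each gene stood above the highest library of the next one down.

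Of the exocyst genes, 9 of 11 were above 1 TPM (81.8%) and 2 below, close to the backgrounds of 78.4% and 17.8%, and 1 of those below is Exoc7, whose value is not read as a level. Exoc2 (Sec5), a target of Ral GTPases, was highest with 88.8, 81.2 and 84.5 TPM. Exoc5 (Sec10) was at 46.7, 44.2 and 49.4, Exoc3 (Sec6) at 39.8, 44.7 and 38.2 and Exoc1 (Sec3) at 35.4, 35.4 and 34.3. The range of Exoc3 overlapped that of Exoc5, and Exoc4 (Sec8) had a mean of 30.3 ± 0.712. Exoc6b was at 26.6, 24.1 and 25.8 and Exoc8 (Exo84) at 23.7, 28.3 and 20.8. Exoc6, the paralog of Exoc6b, was lower in every library, at 8.86, 6.89 and 8.38, a 3.17-fold difference in mean TPM. The Exoc3 relatives Exoc3l1 and Exoc3l4 were low, at 2.80, 2.26 and 2.55 and at 0.146, 0.366 and 0.418 TPM.

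Exoc7 (Exo70), a core subunit that binds the plasma membrane, had 11, 5 and 6 counts, or 0.357, 0.174 and 0.209 TPM, and was below 1 TPM (limma adjusted p = 4.06e-05). It is the 1 member that the table lists at 2 places. Its 18 exons with 2085 bases appear on the minus strand of rn6 chromosome 10 from 105163685 to 105182888 and again from 105242152 to 105259795. Of the 394 such genes in the table, 85% were under 1 TPM in every library, against 25.8% of 12576 other genes with 4 or more exons. The 394 also take in genes on more than 1 chromosome with any number of exons. The value of Exoc7 is therefore not read as a level here.

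**Figure D3:**
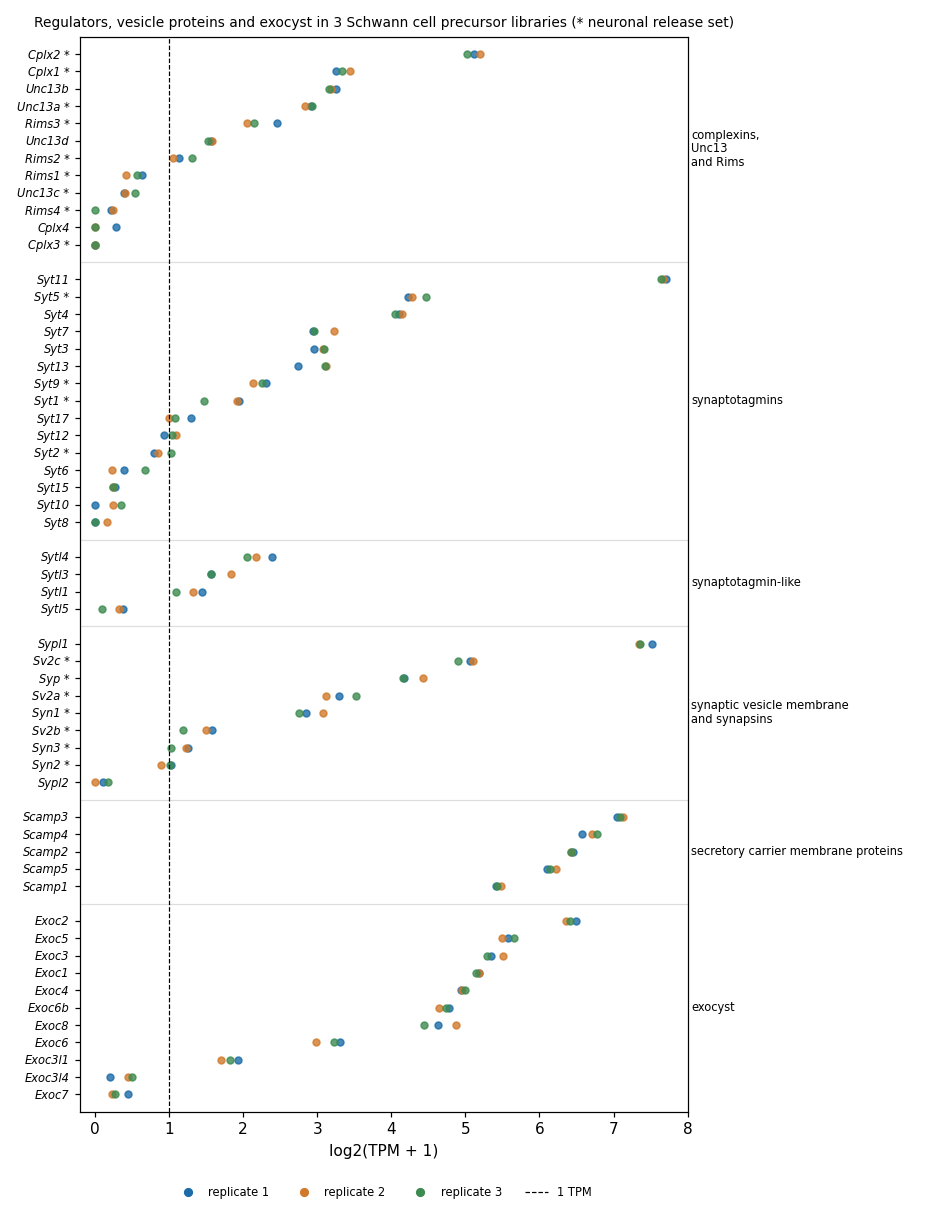
Level of each regulator, vesicle protein and exocyst gene, one row per gene within its role, as log2(TPM + 1) on the horizontal axis, with 1 point per library and a dashed line at 1 TPM. Asterisks mark the neuronal release set; Syt11 and Sypl1 stand far right of the other genes of their roles, and all 5 Scamp genes lie right of the line.

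A list that crosses the roles held 27 members used for transmitter release at nerve terminals, among them Stx1a, Snap25, Vamp1, Vamp2, Stxbp5l, Cplx1 to Cplx3, Unc13a, Unc13c, Rims1 to Rims4, Syt1, Syt2, Syt5, Syt9, Syn1 to Syn3, Sv2a to Sv2c and Syp. Of the 26 with a count, 18 were above 1 TPM (69.2%, beside 78.4% of all genes tested), 4 below (beside 17.8%) and 4 in neither direction. Against 5 TPM, 12 of the 26 were below, beside 28.7% of all genes tested. The list's median was 6.05 ± 0.242 TPM, against 28.0 ± 1.39 for the other 63 members. Genes of the list with a mean of 10 TPM or more included Vamp2, Cplx2, Sv2c, Syt5, Syp and Snap25. The list summed to 420, 436 and 423 TPM, of which Vamp2 alone gave 184, 191 and 191. The sensory neuron markers named above are present in the same libraries, and their part in these levels was not tested.

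Related genes were compared within libraries in 23 pairs. The first gene of the pair was higher in 16 and the second in 7, a split that depends on the order in which each pair was written. In 22 pairs the direction was the same in each of the 3 libraries. How often other pairs of genes keep 1 direction was not computed. Stx4 exceeded Stx1a by a log2 ratio of 4.16 ± 0.23 (SD), Vamp2 exceeded Vamp1 by 4.35 ± 0.05, Syt11 exceeded Syt4 by 3.65 ± 0.05 and Sypl1 exceeded Syp by 3.21 ± 0.22. Snap23 exceeded Snap25 by 1.96 ± 0.16 and Stx2 exceeded Stx3 by 2.98 ± 0.20. Vamp3 over Vamp2 and Unc13b over Unc13a, given above, were among the pairs close to 0. Vamp8 over Vamp2 was -0.36 ± 0.12 and Stx7 over Stx12 was -1.40 ± 0.09. The exact two-sided sign-flip permutation test gave p = 0.25 for the 22 pairs with 1 direction (Benjamini-Hochberg 0.261 over 23 pairs) and p = 0.5 for Vamp3 over Vamp2. With 3 libraries 0.25 is the smallest p this test can give, so no pair can pass 0.05. Vamp7 over Vamp4 was 1.61 ± 0.03 per length, but -0.30 when raw counts were compared.

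**Figure D4:**
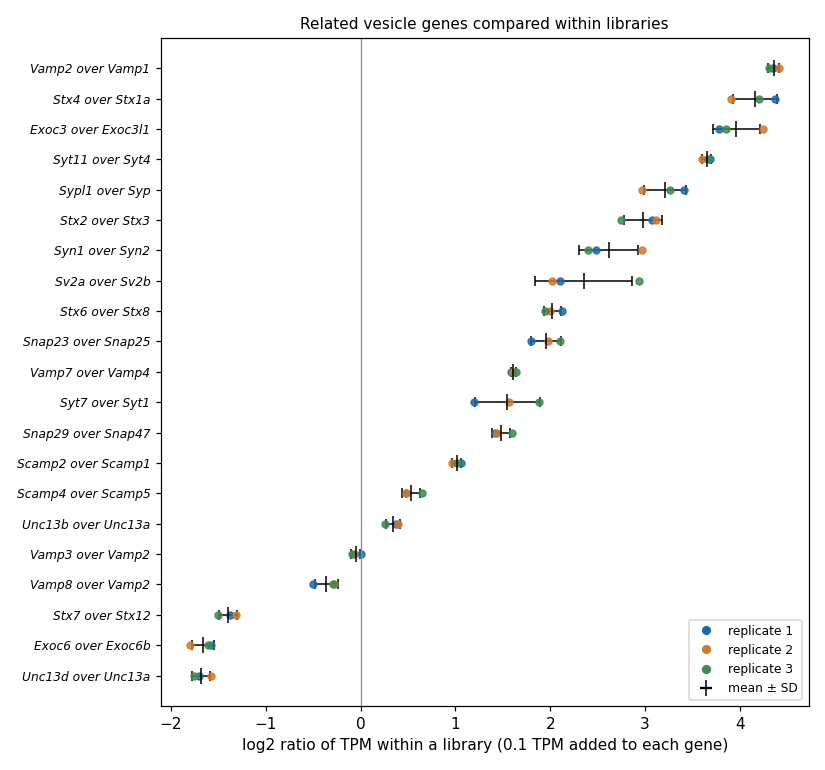
Log2 ratio of TPM between pairs of related genes on the horizontal axis, with 0.1 TPM added to each gene; points are the 3 libraries, ticks and bars the mean ± SD. Mean ratios run from -1.68 for Unc13d over Unc13a to 4.35 for Vamp2 over Vamp1, and the libraries of Vamp3 over Vamp2 lie at 0 or just under it.

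Other genes of the fusion pathway, outside the 90, were taken from 4 lists, and their counts stand beside backgrounds of 78.4% above and 17.8% below 1 TPM. All 13 measured genes for NSF, its adaptors and the remaining SNAREs were above 1 TPM, led by the Golgi SNARE Ykt6 at 247 ± 3.81, the ER-Golgi SNARE Sec22b at 160 ± 2.49 and the adaptor Napa at 155 ± 4.23 TPM. All 12 genes for tethers, other SM proteins and further SNARE binders were above 1 TPM, led by Vps41 at 99.6 ± 1.68, Snapin at 95.2 ± 2.47 and Txlna at 80.6 ± 1.74. Of 16 genes for Rab and Ral GTPases and for Rab regulators, 15 were above, led by Rab11b at 287 ± 9.16, Rab10 at 241 ± 6.66 and Rab11a at 156 ± 2.0.

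In the active zone list, 8 of 16 tested genes were above 1 TPM (50%, beside 78.4% of all genes tested), 5 below (beside 17.8%) and 3 in neither direction, and Otof had no count. Dnajc5, a vesicle chaperone of many cells, was highest at 89.4 ± 6.93 TPM, followed by Ppfia1 at 49.9 ± 2.02 and Erc1 at 23.3 ± 0.646. The genes of the large scaffolds of the active zone were low, with Bsn (bassoon), in neither direction, at 0.925 ± 0.146 and Pclo (piccolo) at 0.310 ± 0.0485. The calcium sensors Doc2a and Doc2b were at 0.165 ± 0.118 and 0.132 ± 0.0854 TPM, and the Rab effectors Rph3a and Rph3al at 0.657 ± 0.0956 and 0.164 ± 0.144. The median over the 17 measured was 1.21 ± 0.105 TPM.

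The spread between libraries was described as the ratio of the highest to the lowest library. Over the 48 members with a mean of 10 TPM or more, the highest library was a median of 1.11 times the lowest, against 1.08 over all 8372 such genes. The largest ratios were those of Exoc8 at 1.36 and Stxbp4 at 1.29. The 90th percentile of the ratio was 1.198 over these members and 1.18 over all such genes. With a minimum mean of 5 TPM it was 1.29 over 60 members and 1.21 over all 9322 genes at that level, a difference that was not tested.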

How the data were processed

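The mRNA libraries were made with a strand-marking kit, per the labels. The submitters' processing notes name STAR 2.5.2b, Subread and genome build rn6. Which annotation was counted, with what strand setting and what rule for multiply matching reads, is not stated there. The deposited table holds raw counts per gene, which the authors made per library, and the TPM that the authors computed from counts and listed gene lengths, per the file headers. Their counts over length, deposited as another kind of column, were not used. TPM recomputed from the deposited counts differed from the authors' TPM by under 0.001. Excluded were 2 rows with a blank symbol, and 6 columns of totals that were matched to no library. Between libraries the counts differed by more than sampling noise. Chi-square was 1.67 to 2.36 times its degrees of freedom over genes with 20 or more counts in the pair. Each library was kept as a replicate, but this excess cannot tell separate cultures from repeat libraries of the same culture. Counts are whole reads without molecular identifiers, so floors cover counting error only.

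A level of log2(TPM + 1) was set against that of 1 TPM by the one-sample moderated test of limma 3.58.1 in R 4.3.3, over 13345 genes with a count, with trend, two-sided, Benjamini-Hochberg adjusted at 0.05. The pseudocount makes differences of low genes look smaller. edgeR 4.0.16 served as an alternative: its quasi-likelihood F statistic on counts was computed from its fit, since its own test takes no design with 1 column. Both were also run on simulated counts with independent libraries and the same spread setting for every gene. That run cannot tell how the tests behave if the libraries are technical repeats. Pairs were compared as log2 ratios with 0.1 TPM added. Named genes were, in each role, the 4 with the highest means, the lowest with a count, members of the pairs and members under 1 TPM in all libraries, given per library or, with few counts, as counts. In each partner list they were the 3 highest and those under 1 TPM; other names were chosen after their values were seen. The members and lists were chosen with earlier results of these data known. Not analysed here were 10 family symbols on the lists (Vti1b, Sytl2 and some older spellings among them) and 6 of 111 marker and partner symbols. A gene counted as listed at 2 places when its exons lay on more than 1 chromosome, or when its 4 or more exons formed 2 series with at least 80% equal lengths. P-values thus reflect only how these 3 libraries vary, perhaps for technical reasons. Alternatives covered the pseudocount, filter, level, variance trend, scaling, test, length correction and each library left out. A few genes are not reported or drawn here, though counts over lists include them. GRCr8 was used for promoter sequences and names only.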

Additional observations from a re-analysis of the deposited data

How the results depend on the processing

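The number of members above 1 TPM was 69 and ran from 67 to 70 when 1 library was left out, and the number below was 13 and ran from 11 to 13. Tested against 5 TPM in place of 1, 60 were above and 28 below, which follows from the higher level. Against 0.5 TPM, 75 were above and 10 below. With the other pseudocounts, filters, variance estimate, scaling, the edgeR statistic and without genes listed at 2 places, 68 to 71 were above and 9 to 15 below; the 9 came from a minimum mean of 0.1 TPM, which tested 84 members. Single calls that were lost were Sytl1 (without replicate 1, without replicate 2 and with no filter on low values), Sv2b (without replicate 1, adjusted p = 0.0767 by limma) and Syt6 (without replicate 1, adjusted p = 0.0588), and calls gained were Rims2 and Syn3 with no variance trend, Rims2 by edgeR and Syn3 without replicate 3. Each pair kept its sign with 0.01 or 1 TPM added and without any 1 library. Compared as raw counts, 1 of the 23 pairs turned, Vamp7 over Vamp4 at -0.30, whose listed lengths are 663 and 2492 bases. The median ratio of the highest to the lowest library was 1.11 with a minimum mean of 5 or 10 TPM, and 1.05 in each case with 1 library left out. No paired analysis was possible because there is 1 group. Depth limits genes with few counts, since 3 counts in a gene of median length are 0.185 to 0.199 TPM.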

Other observations

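Some members are neighbours in rn6 and differ widely in level. Vamp5 (23.3 ± 2.32 TPM) and Vamp8 (148 ± 15.3 TPM) lie 17740 bases apart on the minus strand of chromosome 4. On chromosome 8, Cplx3, with no count, lies 11286 bases from Scamp2 at 85.7 ± 0.942 TPM, with Ulk3 between them. Both pairs have a gap under 25000 bases.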
